A study of Danio rerio with 10 samples.

Results

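The mir-192 and mir-194 family of microRNA genes was examined in livers of zebrafish with hepatocyte-specific activated β-catenin. Members were the rows of the count table whose gene name is mir-192, mir-194a, mir-194b or mir-215. The rule found 3 rows among 32266 genes, of which 272 are named as microRNA genes: mir192 (ENSDARG00000080041), mir194a (ENSDARG00000080851) and mir194b (ENSDARG00000088287). No row carries the name mir-215 in the gene name table used, and mir-215 was not analysed here. The samples were 5 livers of Tg(fabp10a-pt-beta-cat) males (ABC, replicates 6 to 10) and 5 livers of non-transgenic wild-type male siblings (WT, replicates 1 to 5). The methods give an age of 4 months for every fish, a diagnosis of hepatocellular carcinoma (HCC) by histology in ABC, and no significant abnormality in WT. The fabp10a promoter drives the activated β-catenin in hepatocytes, and each library holds the small RNA of 1 fish.

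A microRNA gene is transcribed as a long precursor, which is cut to a hairpin (the pre-miRNA) and then to a short mature RNA that pairs with messenger RNAs and lowers their output. In mammals, miR-192 and miR-194 are abundant in epithelia of the liver, intestine and kidney, and are made from shared primary transcripts, since their genes lie side by side. In the RefSeq annotation of the GRCz12tu assembly, zebrafish mir-192 and mir-194a are direct neighbors inside 1 long non-coding RNA gene (LOC141376387), between wdr74 and ehd1b. The paralog mir-194b lies on another chromosome, between ehd1a and ubxn1, with no microRNA gene beside it. Both loci therefore have an ehd1 gene as a neighbor.

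Total counts lay between 1236439 and 2408262 in ABC and between 1423307 and 2609547 in WT, and pre-miRNAs took 93.1% to 94.5% of them in ABC and 94.7% to 97.5% in WT. A single row, ENSDARG00000083634 (mir124-1 in the gene table, an identity that was not checked further), took up 38.6% ± 6.23 of all pre-miRNA reads in ABC livers, against 69.8% ± 3.15 in WT livers (SD, n = 5 for each). Shares of the other pre-miRNAs shift with it, so levels are given as normalized counts, in CPM (counts scaled to a common library size with edgeR's TMM factors). In a list of 8 hepatocyte symbols, mir-122 had no row under that name in the gene name table. Whether ENSDARG00000083634 holds the reads of mir-122 was not examined, so the list has no microRNA. Transcript fragments of the other 7 hepatocyte symbols were all detected, with summed levels of 102 to 776 CPM in ABC and 345 to 4763 CPM in WT. The highest value was that of WT replicate 5, and the other WT fish reached at most 805 CPM, so the groups overlapped. In a fit over all features, 29.5% of those tested were called, counting both directions. The share called lower alone was not computed. Of 6 tested hepatocyte transcripts, 4 fell in ABC and 0 rose. Without WT replicate 5 this count was 2 of 6, without ABC replicate 6 it was 1 of 6, and without each other fish it was 3 to 5 of 6. Fragments of messenger RNA in small RNA libraries need not follow the transcript. WT replicate 5 was also the highest WT fish in transcript fragments of exocrine pancreas (701 CPM) and of intestinal and biliary epithelium (38.3 CPM). Its pre-miRNA share, 94.7%, was the lowest of the WT fish. The 3 exocrine pancreas pre-miRNAs were all dysregulated as lower, where 19.4% of all pre-miRNAs tested were. They summed to 24.3 to 103 CPM in ABC and 369 to 4798 CPM in WT, and their part in the results below was not tested. Whether these 3 share a primary transcript was not examined, so they need not be independent. In bulk tissue, fewer cells of a type and less RNA per cell cannot be told apart.

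The paralogs of mir-194 differed in ABC compared to WT: mir-194b rose, while neither mir-194a nor its neighbor mir-192 was dysregulated. A pre-miRNA was called dysregulated at an adjusted p under 0.05 and an absolute log2 fold-change (L2FC) of at least 0.5 by the quasi-likelihood test of edgeR, adjusted over the 144 tested pre-miRNAs by the Benjamini-Hochberg method. Of all pre-miRNAs tested, 43.1% were dysregulated, 23.6% as higher and 19.4% as lower in ABC. All 3 members passed edgeR's filter on low counts, and 1 of the 3 was dysregulated.

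The hairpin mir-192 was the second pre-miRNA by mean normalized count among those tested. Its normalized counts were 180215, 104366, 156258, 87016 and 92294 CPM in ABC replicates 6 to 10, against 132664, 153334, 151422, 186618 and 142047 CPM in WT replicates 1 to 5. ABC replicates 7, 9 and 10 lay below every WT fish, and ABC replicates 6 and 8 lay inside the WT range. The means were 124030 ± 41711 CPM in ABC livers, against 153217 ± 20409 CPM in WT livers (SD, n = 5 for each). The L2FC was -0.30 (standard error 0.22, edgeR quasi-likelihood adjusted p = 0.288).

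The normalized counts of mir-194a followed those of mir-192. They were 59110, 35839, 59189, 28591 and 33176 CPM in ABC replicates 6 to 10, against 47029, 52492, 51873, 73237 and 58485 CPM in WT replicates 1 to 5. Again ABC replicates 7, 9 and 10 lay below every WT fish. The means were 43181 ± 14806 CPM in ABC livers, against 56623 ± 10139 CPM in WT livers (SD, n = 5 for each). The L2FC of mir-194a was -0.39 (standard error 0.24, edgeR quasi-likelihood adjusted p = 0.201). By mean normalized count this hairpin was the fourth among the pre-miRNAs tested.

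The level of mir-194b was far lower than that of its paralog and higher in ABC. The raw counts were 2327, 5856, 5605, 3594 and 3692 in ABC replicates 6 to 10, against 202, 569, 302, 2052 and 258 in WT replicates 1 to 5. Even the smallest of these, 202 counts, has a 95% exact Poisson interval of 175 to 232, which covers counting error only. That interval is far narrower than the spread between fish. The normalized counts were 1294, 1853, 4687, 1275 and 1879 CPM in ABC replicates 6 to 10, against 181, 425, 189, 1051 and 235 CPM in WT replicates 1 to 5. Every ABC fish lay above every WT fish, a separation in this direction that 18.1% of the pre-miRNAs tested show, and in either direction 34.7%. ABC replicate 8 was higher than the other ABC fish, and WT replicate 4 came close to the lowest ABC fish.

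The mean of mir-194b was 2198 ± 1422 CPM in ABC livers, against 416 ± 368 CPM in WT livers (SD, n = 5 for each; p = 0.00794 by exact two-sided permutation, the lowest value possible with 5 fish against 5). Its L2FC was 2.40 (standard error 0.57, edgeR quasi-likelihood adjusted p = 0.00539), the seventh highest among the 144. The L2FC was 3.16 without WT replicate 4 and 1.92 without ABC replicate 8, and the call held without either.

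**Figure D1:**
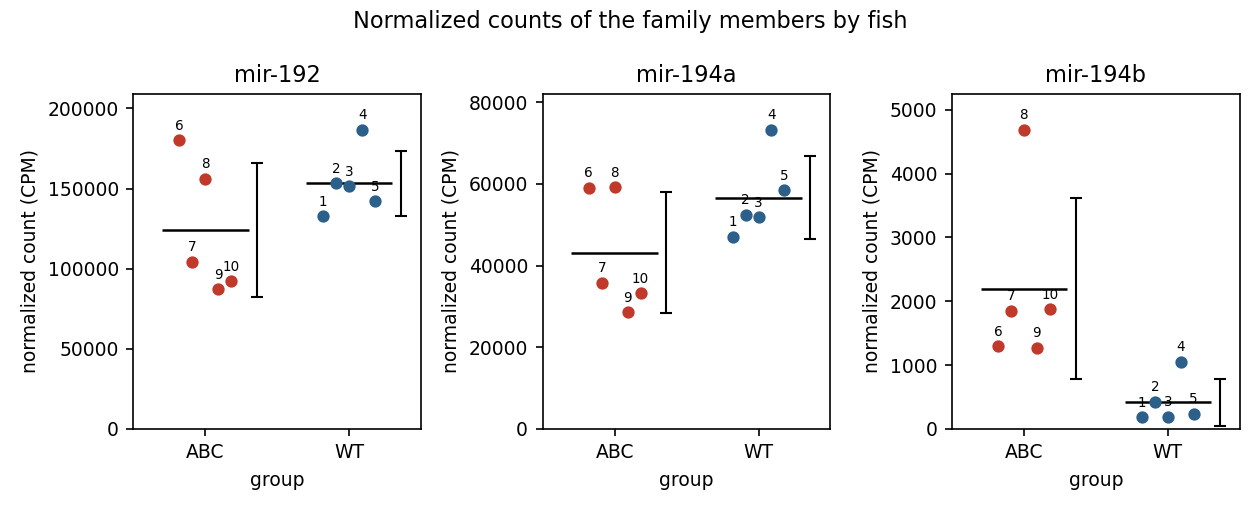
Normalized counts (CPM, linear axes from 0) of mir-192, mir-194a and mir-194b in 5 ABC and 5 WT livers, 1 point per fish numbered by replicate. Horizontal lines are group means and bars are ±1 SD. The groups overlap for mir-192 and mir-194a, and for mir-194b the ABC fish lie between 1275 and 4687 CPM, all above the WT fish at 181 to 1051 CPM.

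**Figure D2:**
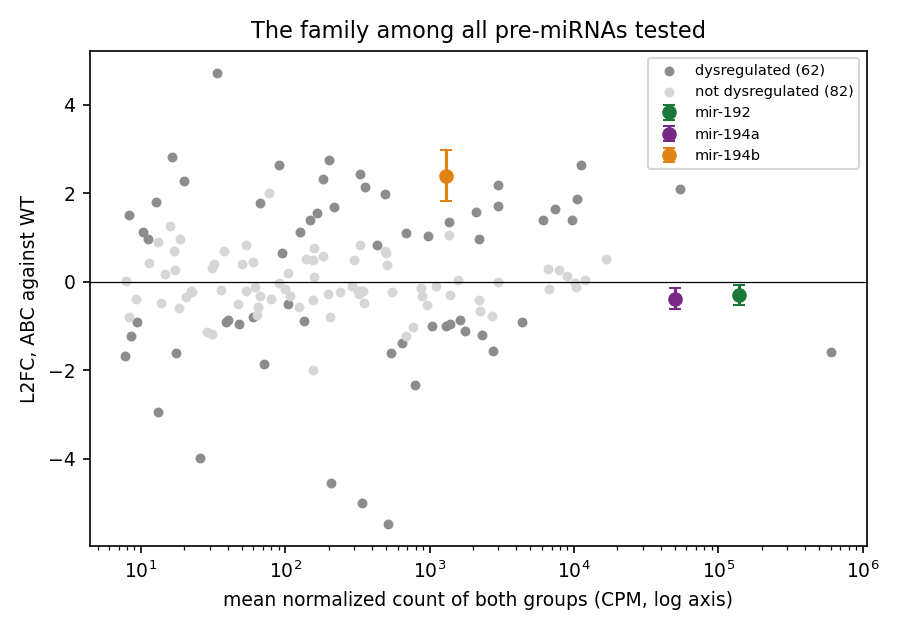
L2FC of ABC against WT by mean normalized count (CPM, log axis) for the 144 pre-miRNAs tested, with dysregulated ones in dark gray. Colored points are the family members, with bars of ±1 standard error. The abundant mir-192 and mir-194a lie near 0, at -0.30 and -0.39, and mir-194b lies at 2.40.

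The members kept 1 order of abundance in every liver. To compare genes, normalized counts were divided by the hairpin lengths in the RefSeq table, which are 85 bases for mir-192, 84 for mir-194a and 77 for mir-194b. Whether counts of short mature RNAs scale with hairpin length was not tested. The lengths are those of GRCz12tu, while the reads were aligned to GRCz10. On this scale the level of mir-192 was 1459 ± 491 CPM per base in ABC livers, against 1803 ± 240 CPM per base in WT livers (SD, n = 5 for each). The level of mir-194a was 514 ± 176 CPM per base in ABC and 674 ± 121 CPM per base in WT, and that of mir-194b 28.5 ± 18.5 CPM per base in ABC and 5.41 ± 4.78 CPM per base in WT. The order mir-192, mir-194a, mir-194b held in 10 of 10 fish. Per base, mir-194a was 21.6 ± 11.8 times the level of mir-194b in ABC and 179 ± 84.8 times in WT.

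The paralogs of mir-194 were then compared within each fish, since a ratio of counts inside 1 library does not depend on how libraries are scaled. The counts of mir-194b were 2.19%, 5.17%, 7.92%, 4.46% and 5.67% of those of mir-194a in ABC replicates 6 to 10, against 0.384%, 0.811%, 0.365%, 1.44% and 0.402% in WT replicates 1 to 5. Every ABC fish was above every WT fish. The log2 ratio was -4.41 ± 0.69 in ABC livers, against -7.43 ± 0.87 in WT livers (SD, n = 5 for each). The difference of 3.01 (95% interval 1.71 to 4.09 by inversion of the exact permutation test) corresponds to an 8.07-fold higher ratio in ABC (p = 0.00794 by exact two-sided permutation, 0.0119 after Benjamini-Hochberg adjustment over the 3 ratios computed). The difference was 3.34 without WT replicate 4.

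By contrast, the neighbors mir-194a and mir-192 kept a nearly fixed proportion. The counts of mir-194a were 32.8%, 34.3%, 37.9%, 32.9% and 35.9% of those of mir-192 in ABC replicates 6 to 10, against 35.4%, 34.2%, 34.3%, 39.2% and 41.2% in WT replicates 1 to 5. The ranges overlap. The log2 ratio was -1.53 ± 0.09 in ABC livers, against -1.44 ± 0.12 in WT livers (SD, n = 5 for each). The difference of -0.08 (95% interval -0.26 to 0.08) was within the spread between fish (p = 0.270 by exact two-sided permutation).

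The third ratio, of mir-194b to mir-192, repeated the first, as the other pair was nearly fixed. Its log2 value was -5.94 ± 0.76 in ABC livers, against -8.87 ± 0.90 in WT livers (SD, n = 5 for each). The difference was 2.93 (95% interval 1.61 to 4.10), with no overlap between the groups (p = 0.00794 by exact two-sided permutation, 0.0119 after adjustment over the 3 ratios). This ratio shares the counts of mir-194b with the first and is not independent of it.

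**Figure D3:**
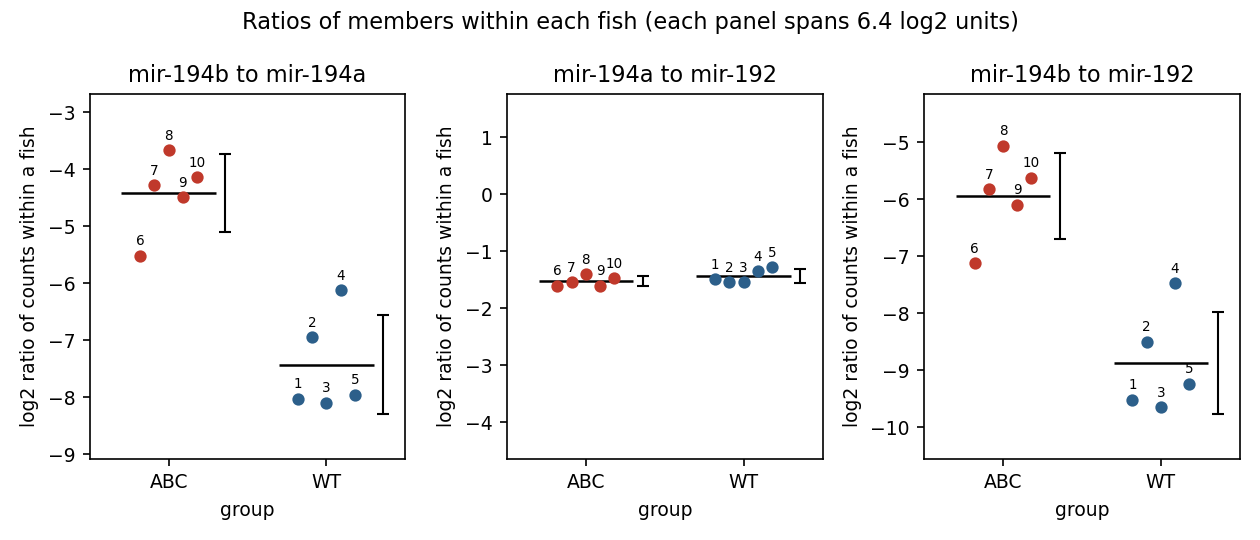
Log2 ratio of raw counts within each fish for the 3 pairs of members, ABC left of WT, 1 point per fish numbered by replicate, with group means (lines) and ±1 SD (bars). All panels span the same number of log2 units. The ratio of mir-194a to mir-192 stays near -1.53 in ABC and -1.44 in WT, and both ratios of mir-194b lie about 3 log2 units higher in ABC.

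Reads of paralogs can be divided between rows in ways that the sources used here do not describe, so both mir-194 rows were also summed. The summed normalized count was 45489 ± 15523 CPM in ABC livers, against 56864 ± 10465 CPM in WT livers (SD, n = 5 for each). The L2FC of the sum was -0.32 (standard error 0.24, edgeR quasi-likelihood adjusted p = 0.30). Over the fish of a group, mir-194b made up counts equal to 4.83% of the mir-194a counts in ABC (21074 against 436121) and 0.820% in WT (3383 against 412701). The sum thus followed mir-194a, and the rise of mir-194b was not visible in it.

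For mir-192 and mir-194a the direction of the small difference rested on the scale, whereas the rise of mir-194b did not. With libraries scaled by total pre-miRNA count alone, the L2FC was 0.43 for mir-192, 0.35 for mir-194a and 3.10 for mir-194b, and the median L2FC of all tested pre-miRNAs moved up by 0.78. Relative to the median of the pre-miRNAs tested, mir-192 lay at -0.19 and mir-194a at -0.28 with TMM factors. Under the 8 alternatives that kept every fish, these values stayed between -0.30 and -0.18 for mir-192 and between -0.38 and -0.26 for mir-194a. A change of scale moves all L2FC by nearly the same amount, so a distance from the median changes little by construction. The alternative that required at least 10 counts in 5 fish kept 144 pre-miRNAs and repeated the values of the main fit. Without each fish in turn they ranged from -0.43 to -0.13 for mir-192, with -0.43 without ABC replicate 6 and -0.39 without WT replicate 5, and from -0.48 to -0.22 for mir-194a. For mir-194b the distance from the median was 2.51, and 2.36 to 2.54 under the same alternatives, and 2.03 to 3.11 without each fish.

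**Figure D4:**
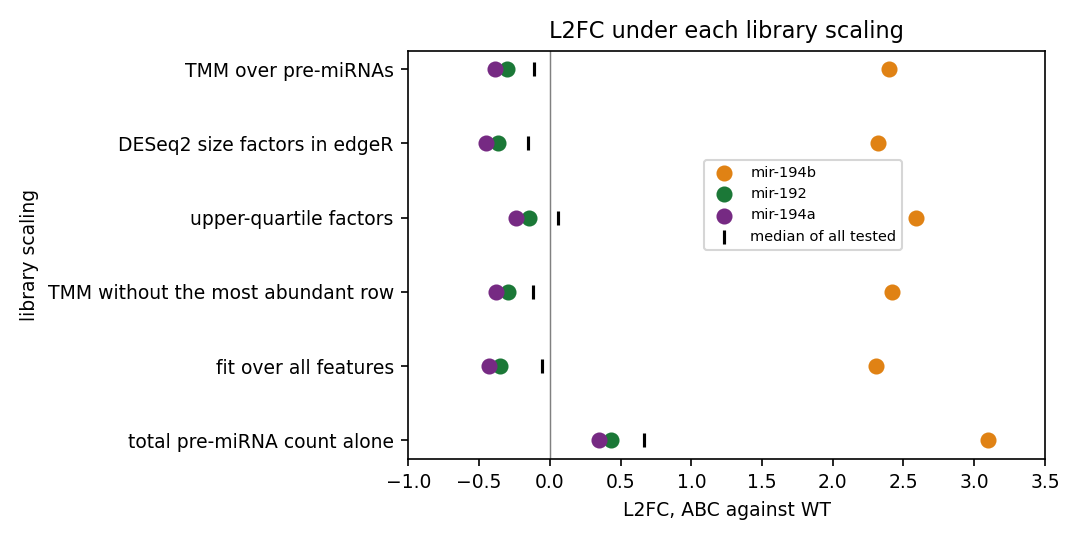
L2FC of ABC against WT for mir-194b, mir-192 and mir-194a (points) and the median of all pre-miRNAs tested (bars) under 6 ways of scaling the libraries. Only scaling by the total pre-miRNA count puts mir-192 (0.43) and mir-194a (0.35) above 0. The median is 0.67 with that scaling, 0.06 with upper-quartile factors and below 0 with the rest, and mir-194b lies between 2.30 and 3.10 throughout.

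Shares of counts show the same dependence. Among all pre-miRNA counts, the share of mir-192 was 15.9% ± 4.38 in ABC and 11.8% ± 1.87 in WT (SD, n = 5 each). This mir-192 share overlapped between groups, though 4 of 5 ABC fish lay above every WT fish (p = 0.0635 by exact two-sided permutation). With the most abundant row left out of the total, its share was 26.0% ± 6.99 in ABC livers, against 38.9% ± 2.55 in WT livers (SD, n = 5 for each), with every ABC fish below every WT fish (p = 0.00794 by exact two-sided permutation). For mir-194a the corresponding shares were 5.52% ± 1.44 in ABC and 4.34% ± 0.743 in WT with every row (SD, n = 5 each; p = 0.143 by exact two-sided permutation). Without the most abundant row they were 9.06% ± 2.54 in ABC and 14.3% ± 1.48 in WT (SD, n = 5 each; p = 0.00794 by exact two-sided permutation). How many of all pre-miRNAs separate between the groups on this smaller total was not computed. The smaller total also holds rows that differ between groups, so a share in it shifts with them. With TMM factors neither mir-192 nor mir-194a was dysregulated. The whole family held 35.5% ± 9.56 of these remaining counts in ABC and 53.4% ± 3.67 in WT (SD, n = 5 each). The share of mir-194b was higher in ABC on either total, at 0.274% ± 0.132 in ABC and 0.0320% ± 0.0283 in WT with every row (SD, n = 5 each; p = 0.00794 by exact two-sided permutation).

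Likeness to other pre-miRNAs was described by the SD, over the 10 fish, of the log2 ratio of counts between 2 pre-miRNAs, where a low SD means that both moved together. Of the 143 other pre-miRNAs tested, mir-194a was the closest to mir-192, with an SD of 0.11, against a median of 0.79. After it came mir26a-2 (SD 0.24) and MIR26A1 (SD 0.28), both of the miR-26 family. The closest to mir-194a were mir-192, mir26a-2 (SD 0.26) and mir125b-3 (SD 0.29), the last with only 380 counts over all fish. For mir-194b the closest were MIR222 (ENSDARG00000090347, SD 0.82), mir200a (SD 0.84) and MIR200B (ENSDARG00000081868, SD 0.88), against a median of 1.73. The paralog mir-194a came 77th of 143 and mir-192 came 72nd in this order. The SD runs over both groups, so a pre-miRNA with an L2FC like that of a member ranks close to it by construction.

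Because miR-200 family members are marks of epithelial cells, the levels of a list for intestinal and biliary epithelium were set beside mir-194b. Of its 6 pre-miRNA rows, 5 were tested; 3 rose in ABC (mir200a, MIR200B ENSDARG00000081868 and dre-mir-429, L2FC 1.65, 1.40 and 1.03) and 0 fell, where 23.6% of all pre-miRNAs tested rose. Of these 3, mir200a and MIR200B are also among the rows closest to mir-194b above, so both statements rest in part on the same rows. Whether the 3 share a primary transcript was not examined, so they need not be independent of each other. The median L2FC of the 5 was 1.03, against -0.11 for all tested pre-miRNAs. The L2FC of mir141 was 0.04, and that of the other MIR200B row, ENSDARG00000080713, was -1.22 (edgeR quasi-likelihood adjusted p = 0.134). The summed level of the 6 rows was 16387 to 29226 CPM in ABC and 6364 to 17126 CPM in WT. The highest WT value belonged to WT replicate 4, and the other WT fish reached at most 11065 CPM.

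WT replicate 4, the WT fish with the most mir-194b, also had 4190 CPM of mir141, against 385 to 1582 CPM in the other WT fish. Its level of ENSDARG00000080713 was 2794 CPM, against 174 to 849 CPM in the other WT fish. For mir200a it had 4376 CPM, against 2677 to 4295 CPM in those fish. The summed epithelial transcripts of WT replicate 4 were at 6.15 CPM, from 12 counts, beside 6.89 CPM from 11 counts in WT replicate 3. The keratin transcript krt18a.1 was at 4.10 CPM in WT replicate 4, against 4.49 to 15.5 CPM in the other WT fish. With so few counts, the order of the WT fish in these transcripts is uncertain. ABC replicate 8, the ABC fish with the most mir-194b, had 143 CPM of krt18a.1, against 19.6 to 27.5 CPM in the other ABC fish. Its summed hepatocyte transcripts were also the highest of the ABC fish, at 776 CPM against 102 to 379 CPM. Its mir200a was the highest of these fish, at 14419 CPM, and its ENSDARG00000080713 the lowest, at 264 CPM. Its mir141, at 1329 CPM, lay within the 1047 to 2152 CPM of the other ABC fish. Fragments of all 5 epithelial transcripts in the list were detected, at summed levels of 24.05 to 155 CPM in ABC and 6.15 to 38.3 CPM in WT. The most abundant of them, krt18a.1, had 401 counts over the ABC fish and 48 over the WT fish and rose in ABC in the fit over all features (L2FC 2.67, edgeR quasi-likelihood adjusted p = 0.00738). Without ABC replicate 8 its L2FC was 1.86 (edgeR quasi-likelihood adjusted p = 0.0049). Whether hepatocytes or tumor cells also express krt18a.1 was not examined, so its rise cannot be assigned to a cell type. The next, ANXA4, had 59 counts over the ABC fish and 28 over the WT fish. The other 3, CDH17, FABP2 and VIL1, had 4, 3 and 2 counts over the ABC fish and 5, 11 and 6 over the WT fish.

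The counts of mir-194b were 7.90%, 9.68%, 16.0%, 5.10% and 6.92% of the summed counts of the epithelial pre-miRNAs in ABC replicates 6 to 10, against 2.14%, 3.85%, 2.97%, 6.14% and 3.12% in WT replicates 1 to 5. ABC replicate 9 lay below WT replicate 4, and the other 4 ABC fish lay above every WT fish. The part of epithelial cells in the rise of mir-194b was not tested.

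**Figure D5:**
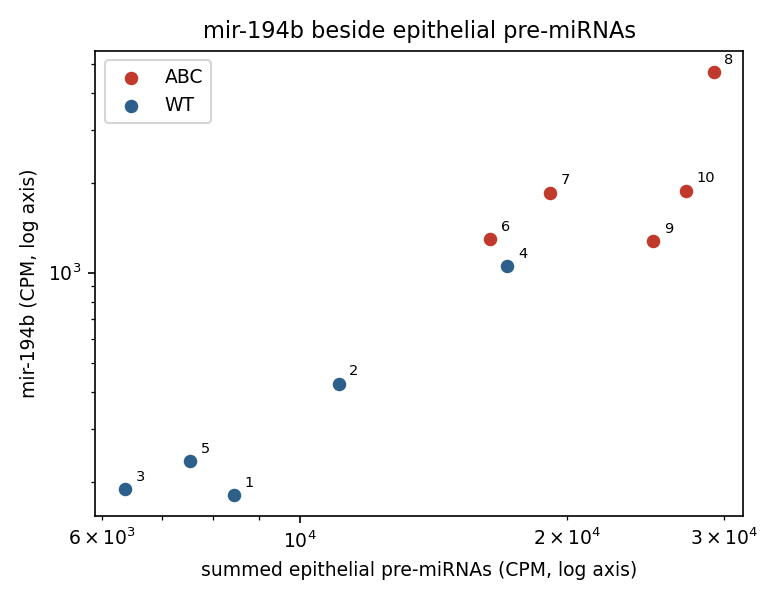
Normalized count of mir-194b against the summed normalized count of 6 epithelial pre-miRNA rows (both in CPM, log axes), 1 point per fish numbered by replicate. The ABC fish lie at 16387 to 29226 CPM of the sum and the WT fish at 6364 to 17126 CPM, and WT replicate 4 lies next to ABC replicate 6 on both axes. The sums of these fish differ in make-up: mir141 is at 4190 CPM in WT replicate 4 and 1858 CPM in ABC replicate 6. For mir200a the values are 4376 and 7599 CPM.

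Transcription factors that act on these microRNA genes in mammals, and reported mammalian targets, were looked up as transcript fragments. Of 24 symbols, 13 had a row, 11 of these had at least 1 count, and 1 passed the filter on low counts. That row, HNF4A, which encodes a nuclear receptor of hepatocytes, had 94 counts over the ABC fish and 24 over the WT fish. Its L2FC was 1.31 (edgeR quasi-likelihood adjusted p = 0.134 over all features). The reported targets with a row, zeb1a, zeb2a, cdh2, rb1, dhfr, tyms, sox3 and hbegfa, had at most 23 counts over the fish of a group. No statement on targets of the family can be made at this depth.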

How the data were processed

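Small RNA libraries of 5 ABC and 5 WT livers, 1 per fish, were the samples. Per the methods, the authors used the NEBNext Multiplex Small RNA kit and 50 bp single reads, aligned these to GRCz10 and counted them using miRBase. The submitters' processing notes name Novoalign and featureCounts. Versions, strand setting and the handling of multi-mapping reads are not given in the sources used here, so the division of reads between mir-194a and mir-194b is uncertain. The deposited table holds raw counts, with 1 row per Ensembl gene and 1 column per fish. All sample columns were used (0 unused). A gene name table named 26433 of 32266 identifiers, 272 of them as microRNA genes.

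For the pre-miRNA counts, edgeR 4.0.16 was run under R 4.3.3 (filterByExpr, TMM, glmQLFit, glmQLFTest, no covariate). The standard error of an L2FC was its size over the root of F. Among the alternatives was DESeq2 1.42.0. Ratios used a pseudocount of 0.5 counts. Single values were compared by exact permutation of 5 fish against 5 (scipy 1.17.1), as 252 splits. The labels name no batch. No pair of fish had counts within sampling noise of each other (chi-square per degree of freedom of at least 101). The edgeR script was tested on simulated data.

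The members, the marker lists, the list of regulators and targets, and the tests were chosen with earlier results of these data known. Some rows of the list of regulators are not reported here. The text names the members, the 3 pre-miRNAs most alike to each, the row of highest mean count and the most abundant members of lists set beside a result. Other list members were named after their values were seen. In the list for muscle, 1 of 7 pre-miRNA rows was tested and fell in ABC, and for exocrine pancreas 3 of 3 fell. Of all pre-miRNAs tested, 19.4% were lower in ABC. The rows of a list need not be independent, as shared primary transcripts were not examined. For leukocytes 1 of 4 tested fell (mir150), and MIR223, mir155 and MIR142 were not called (L2FC 0.82, 0.76 and -0.29). For endothelium 0 of 1 was called, while both erythrocyte pre-miRNA rows had 0 counts.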

Additional observations from a re-analysis of the deposited data

Results flagged for a closer look

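Over 10 measures of the family in 2 groups of 5 fish, 4 of the 20 groups held 1 fish whose Dixon ratio passed the 95% critical value of 0.71, and chance alone marks about 1 in 20 groups. The measures share counts and are not independent. The normalized count of mir-194b was 4687 CPM in ABC replicate 8, against 1275 to 1879 CPM in the other ABC fish, and 1051 CPM in WT replicate 4, against 181 to 425 CPM in the other WT fish. WT replicate 4 also stood apart in its shares of the pre-miRNA counts. These were 0.0807% for mir-194b (95% exact binomial interval 0.0772% to 0.0842%) and 5.62% for mir-194a (95% exact binomial interval 5.59% to 5.65%), where the other WT fish had at most 0.0336% and 4.29%. This fish had the largest library of the 10, at 2609547 counts.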

How the results depend on the processing

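The rise of mir-194b kept its direction and its call under all 8 alternatives with every fish (L2FC 2.30 to 3.10, adjusted p 1.38e-04 to 0.0124, edgeR or DESeq2) and without each fish in turn (1.92 to 3.16, adjusted p 3.59e-04 to 0.0148). The ratios of mir-194b to mir-194a and to mir-192 stayed past p = 0.05 under other pseudocounts and with counts summed over the fish (2.56 and 2.45, two-sided exact permutation tests). Without each fish they were 2.82 to 3.34 and 2.71 to 3.28. The groups did not overlap in either ratio. Leaving out any fish therefore gave the lowest p possible for 4 fish against 5 by construction (0.0159, two-sided exact permutation). The ratio of mir-194a to mir-192 passed no threshold under the same changes (-0.11 to -0.04 without each fish). Requiring at least 10 counts in 5 fish repeated the values of the main fit, so that alternative adds nothing to it. The L2FC of mir-192 and mir-194a was called under no alternative, nor was that of the mir-194 sum. All 3 turned positive with total pre-miRNA counts alone: 0.43 for mir-192 (adjusted p = 0.0784), 0.35 for mir-194a (adjusted p = 0.158) and 0.40 for the sum (adjusted p = 0.0993, edgeR). That total includes the most abundant row, whose part in this change of sign was not tested on its own. The share differences of mir-192 and mir-194a turned to -12.9 and -5.28 percentage points with that row left out of the total. Without each fish they ranged from 2.31 to 5.26 and from 0.664 to 1.63 percentage points. They passed p = 0.05 for mir-192 without ABC replicate 9 (5.26) or WT replicate 4 (4.72), and for mir-194a without ABC replicate 9 (1.63; two-sided exact permutation tests). The number of dysregulated pre-miRNAs was 62, 47 to 75 under the alternatives and 54 to 65 without each fish. With total counts alone the split was 65 higher and 10 lower in ABC, against 34 and 28. Chosen after seeing the data, leaving out each fish from the fit over all features gave 1 to 5 hepatocyte transcripts as lower in ABC, against 4 with every fish, and an L2FC of krt18a.1 of 1.86 to 2.85. No alternative was run for mir-215, as no row carries that name in the gene name table used. Mature sequences were not analysed here, so which reads tell the paralogs apart was not tested.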
